A study of Mus musculus with 8 samples.

Results

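The genes described are the 6 chains of the receptors for type I interferon (Ifnar1, Ifnar2), for interferon gamma (Ifngr1, Ifngr2) and for interleukin 10 (Il10ra, Il10rb). They were chosen by gene symbol, and no measured value entered that rule, although earlier results of these data were known. They make up 6 of the 54532 rows of the deposited table. All 6 passed the filter of at least 1 FPKM in at least 2 libraries, as did 11421 genes in all. FPKM is the number of sequenced fragments scaled by gene length and by a library factor. The RNA came from mouse macrophages, phagocytes derived from bone marrow, and gave 8 libraries in 4 groups of 2. The groups were PBS at 0 h, PBS at 3 h, spermine at 0 h and spermine at 3 h, where the time counts hours of IFN-β and spermine is a polyamine that cells also make. The study's title names JAK1 as a target of spermine, which makes the receptors that signal through this kinase a direct point of comparison. The sources used here do not give mouse strain, sex, age or genotype, the doses, how long spermine was present, or what the marrow numbers in the titles stand for.

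Each of these receptors pairs a ligand-binding chain with a partner chain, and both carry a Janus kinase on their inner tail. Ifnar1 is bound by TYK2 and Ifnar2 by JAK1, and together they pass type I interferon signals to STAT proteins. Ifngr1 binds interferon gamma with JAK1 and Ifngr2 brings JAK2, and the pair activates macrophages. Il10ra binds interleukin 10 with JAK1, while Il10rb brings TYK2 and is shared with the receptors for interleukin 22 and lambda interferons. Interleukin 10 acts through STAT3 and restrains inflammatory output of macrophages.

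The solvent control is DMSO in the series text and PBS in the titles, and PBS is used here. The RNA protocol names blood, whereas all 8 of the macrophage markers examined (Csf1r, Adgre1, Cd68, Itgam, Mertk, Fcgr1, Cd14, Lyz2) were present, at a summed level of 11204 to 12239 FPKM in PBS libraries and 12329 to 13807 in spermine libraries. Erythroid markers summed to at most 0.0727 FPKM, B cell markers to at most 1.01 and NK cell markers to at most 0.102. T cell markers reached 4.16 FPKM and neutrophil markers 9.87, with Cd3e, Cd3d, Trac, Cd8a, Ly6g, Mpo and Elane below 1 in every library. The remaining markers of these sums, Cd4 for T cells and S100a8, S100a9 and Ngp for neutrophils, passed the filter. Of 4 dendritic cell markers, Flt3, Zbtb46 and Siglech were below 1 FPKM in every library. The sum of the 4 lay between 0.325 and 0.336 FPKM in PBS 0 h and between 5.68 and 6.54 in spermine 3 h, of which Xcr1 alone made up 6.41 and 5.53 in spermine 3 h, and its part in the results below was not tested. Rebuilt read totals lay between 15723437 and 17744844 per library. With no 3 h group lacking IFN-β, an effect of the added time cannot be told apart from one of IFN-β. Whether both libraries of a group are separate mice or cultures is not labelled, and the spread behind each p-value may be technical. In bulk RNA, fewer cells that express a gene and less of its RNA per cell cannot be told apart.

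Of the 6 genes, 4 lie side by side on chromosome 16, all on the forward strand of GRCm38, within 192841 bases. In order these are Ifnar2 (ENSMUSG00000022971, 91372783 to 91405589), Il10rb (ENSMUSG00000022969, 91406164 to 91425834), Ifnar1 (ENSMUSG00000022967, 91485238 to 91507441) and Ifngr2 (ENSMUSG00000022965, 91547072 to 91565623). Ifngr1 (ENSMUSG00000020009) stands alone on chromosome 10 from 19591949 to 19610229, and Il10ra (ENSMUSG00000032089) on the reverse strand of chromosome 9 from 45253837 to 45269149. The annotation gives Ifnar2 5 transcripts, all coding, and a gene-level value does not separate them. A further coding gene model, Gm21970, spans Ifnar2 and Il10rb and shares 315 exonic bases with the first (9.46% of its exonic length) and 569 with the second (14.9%). Gm21970 held 0 reads in all 8 libraries, and the handling of reads over the shared bases is not stated in the sources used here. Introns of Il10ra hold Gm20612 on the opposite strand, with 0 to 21 reads per library, and the microRNA gene Mir7086, with 1 to 9, and neither shares an exonic base with it.

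The 250 bases before the RefSeq start of 4 of the genes are shown. Within the spermine groups, Ifnar2 and Ifngr2 of this cluster moved in opposite directions with IFN-β (log2 change 0.65 and -0.51). Ifngr1, on another chromosome, fell there as Ifngr2 did (-0.90). The windows, on the forward strand of GRCm38.p6, are chr16:91484965-91485214 for Ifnar1, chr16:91372533-91372782 for Ifnar2, chr10:19591699-19591948 for Ifngr1 and chr16:91546809-91547058 for Ifngr2. Il10ra and Il10rb were not matched in the RefSeq promoter table. Capitals mark GGGCGG, the GC box, on either strand, and TTCNNNGAA, the gamma-activated site bound by STAT dimers.
Ifnar1: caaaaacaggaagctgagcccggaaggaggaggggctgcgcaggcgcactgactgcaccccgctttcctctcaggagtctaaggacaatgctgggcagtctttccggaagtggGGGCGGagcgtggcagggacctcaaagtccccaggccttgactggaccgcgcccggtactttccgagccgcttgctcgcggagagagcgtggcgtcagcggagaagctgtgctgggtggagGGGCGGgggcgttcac
Ifnar2: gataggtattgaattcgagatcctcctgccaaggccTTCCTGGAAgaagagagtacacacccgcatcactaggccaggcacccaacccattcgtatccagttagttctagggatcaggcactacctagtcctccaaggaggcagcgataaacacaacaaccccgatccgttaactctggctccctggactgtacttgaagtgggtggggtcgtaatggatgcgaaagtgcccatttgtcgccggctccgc
Ifngr1: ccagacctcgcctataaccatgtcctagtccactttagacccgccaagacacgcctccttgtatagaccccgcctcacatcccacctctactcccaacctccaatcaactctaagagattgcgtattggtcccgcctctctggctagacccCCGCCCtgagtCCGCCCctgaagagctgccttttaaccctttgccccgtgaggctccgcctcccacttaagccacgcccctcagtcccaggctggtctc
Ifngr2: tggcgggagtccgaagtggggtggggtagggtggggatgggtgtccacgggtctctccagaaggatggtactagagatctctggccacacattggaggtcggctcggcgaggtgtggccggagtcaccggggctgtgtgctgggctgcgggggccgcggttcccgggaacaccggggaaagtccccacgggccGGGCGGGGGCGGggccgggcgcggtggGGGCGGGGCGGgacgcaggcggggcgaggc

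Motifs were searched on both strands, and positions count back from the base before the start. GGGCGG was found 2 times before Ifnar1 (-137, -16), 2 times before Ifngr1 (-99, -88) and 4 times before Ifngr2 (-57, -51, -30, -25, the last pair overlapping by a base), and 0 times before Ifnar2. It occurs in 32.7% of the 32851 RefSeq windows of this length. TTCNNNGAA was found once, before Ifnar2 at -214, and occurs in 7.02% of windows. The interferon-stimulated response element core AAANNGAAA (9.37% of windows), the antioxidant response element core TGACNNNGC (10.2%) and the TATA box TATAAA (12.4%) had 0 matches in these 4 windows. Guanine and cytosine made up 74.0% of the Ifngr2 window, 65.6% before Ifnar1, 59.2% before Ifngr1 and 54.0% before Ifnar2, against a median of 52.4% over all windows.

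IFN-β for 3 h in PBS changed all 6 receptor genes, 2 upward and 4 downward. Il10ra rose 2.80-fold and Ifnar2 rose 1.13-fold, while Ifngr1 fell to 0.331 of its level, Ifngr2 to 0.574, Il10rb to 0.653 and Ifnar1 to 0.810. Fold values are on the FPKM + 1 scale, which understates the change of low genes. Changes were tested with limma on log2(FPKM + 1), with Benjamini-Hochberg adjustment across the 11421 genes and a call at an adjusted p under 0.05. At this threshold 49.6% of all tested genes changed with IFN-β in PBS, 24.6% higher and 25% lower, beside 2 of the 6 receptor genes higher and 4 lower. The median log2 change was -0.46 over the 6 genes and -0.02 over all tested genes. Of all called genes 49.6% were higher, and 21.1% were when FPKM was rescaled to a fixed library sum (TPM), which moves the median change of all genes by -0.46. With TPM rescaling, as with quantile normalization, 1 of the 6 receptor genes was called higher (Il10ra) and 5 lower.

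**Figure D1:**
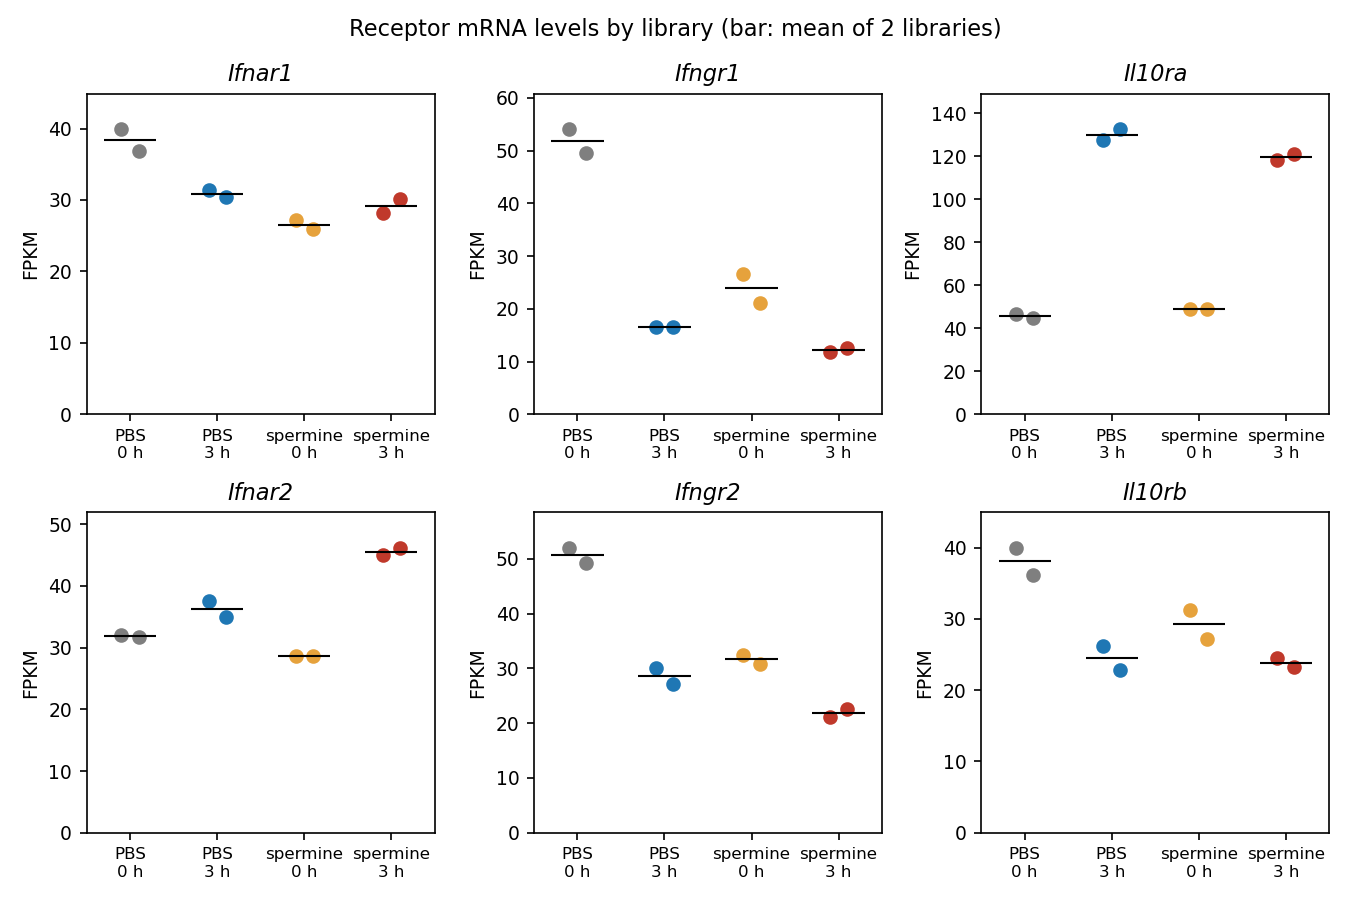
Level of each receptor gene in every library, in FPKM from 0, with the 4 groups along the horizontal axis; points are libraries and lines the mean of the 2 libraries of a group. Il10ra stands at 118 to 133 FPKM in the 3 h libraries against 45.0 to 48.9 at 0 h, and Ifngr1 falls from 54.1 and 49.5 in PBS 0 h to between 11.9 and 16.5 at 3 h.

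Ifnar1, the chain that carries TYK2, was highest in PBS 0 h, at 39.9 and 36.9 FPKM. It stood at 31.3 and 30.4 in PBS 3 h, at 27.2 and 25.9 in spermine 0 h and at 28.2 and 30.1 in spermine 3 h. The PBS 0 h libraries lie above all others, and the remaining 3 groups lie within a few FPKM of each other without overlapping. Spermine at 0 h lowered Ifnar1 by a log2 change of -0.52 ± 0.07 (SE; limma adjusted p = 0.00151), and IFN-β in PBS by -0.30 ± 0.07 (limma adjusted p = 0.0102). Without PBS 0 h replicate 1 the second call was lost (-0.25, limma adjusted p = 0.0727). With spermine, IFN-β gave a log2 change of 0.13 (limma adjusted p = 0.183, 95% interval -0.04 to 0.30), and TPM rescaling and quantile normalization turned its sign, to -0.20 and -0.13. At 3 h the log2 change with spermine was -0.08 (limma adjusted p = 0.394, 95% interval -0.25 to 0.09), and of 16 alternatives TPM rescaling alone gave a call (-0.29).

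Ifnar2, the chain that carries JAK1 and the main contact for the ligand, had its highest level in spermine 3 h, at 44.9 and 46.2 FPKM. PBS 3 h followed at 37.6 and 35.01, then PBS 0 h at 32.0 and 31.7 and spermine 0 h at 28.6 in both libraries. The order puts both 3 h groups above both 0 h groups, with no overlap between neighbours. With spermine present, IFN-β raised Ifnar2 by 0.65 ± 0.06 log2 (limma adjusted p = 0.000224), a call kept in all 16 alternative fits. In PBS the change was 0.18 ± 0.06 (limma adjusted p = 0.0470), it was called in 1 of 8 fits that leave out 1 library (the fit without PBS 3 h replicate 2, at 0.23), and its direction turned with TPM rescaling (-0.29, limma adjusted p = 0.00638) and with quantile normalization (-0.26, limma adjusted p = 0.0140). The rise with IFN-β in PBS is therefore given only on the deposited scale. At 3 h, spermine libraries lay above PBS libraries by 0.32 ± 0.06 log2 (limma adjusted p = 0.00665), and the call was lost with TPM rescaling (0.12, limma adjusted p = 0.176), with quantile normalization (0.18) and without spermine 3 h replicate 2 (0.30, limma adjusted p = 0.0501). At 0 h, the change with spermine was -0.15 (limma adjusted p = 0.0963), and it passed the threshold with TPM rescaling (-0.50) and quantile normalization (-0.43).

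Within each library, the ratio of Ifnar2 to Ifnar1 does not depend on library scaling. It was 0.802 and 0.860 in PBS 0 h, 1.198 and 1.151 in PBS 3 h, 1.05 and 1.11 in spermine 0 h and 1.59 and 1.54 in spermine 3 h. Ifnar1 was thus the more abundant chain per length only in PBS 0 h, and no group overlapped the group it is compared with. The ratio rose by 0.50 log2 with IFN-β in PBS and by 0.53 with spermine, and by 0.38 and 0.41 with spermine at 0 h and 3 h. The ratios are given as values, with no test. An exact permutation test of 2 libraries against 2 can give no two-sided p below 0.333.

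Ifngr1, the ligand-binding chain of the interferon gamma receptor, fell further than the other 5 genes with IFN-β and with spermine at 0 h. It was at 54.1 and 49.5 FPKM in PBS 0 h, 26.6 and 21.1 in spermine 0 h, 16.5 in both libraries of PBS 3 h, and 11.9 and 12.6 in spermine 3 h. Each group lies apart from the next in this order, and the step from spermine 0 h to PBS 3 h was not compared by a test. IFN-β changed Ifngr1 by -1.59 ± 0.11 log2 in PBS (limma adjusted p = 2.96e-05), which placed it at percentile 1.04 of all tested genes, and by -0.90 ± 0.11 with spermine (limma adjusted p = 0.000775). Spermine at 0 h changed it by -1.09 ± 0.11 (limma adjusted p = 0.000437). These 3 calls held in all 16 alternatives. At 3 h the log2 change with spermine was -0.40 ± 0.11 (limma adjusted p = 0.0263), and it was called in 4 of 8 fits that leave out 1 library, being lost without either library of PBS 3 h or of spermine 3 h.

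Ifngr2, the partner chain that brings JAK2, followed the same order of groups with smaller steps. Its levels were 52.0 and 49.2 FPKM in PBS 0 h, 32.5 and 30.8 in spermine 0 h, 30.2 and 27.1 in PBS 3 h and 21.2 and 22.6 in spermine 3 h. Spermine 0 h and PBS 3 h lie next to each other, 30.8 against 30.2 at their nearest, and were not compared by a test. The log2 change was -0.80 ± 0.08 with IFN-β in PBS (limma adjusted p = 0.000155) and -0.51 ± 0.08 with IFN-β and spermine (limma adjusted p = 0.00210). Spermine lowered Ifngr2 by -0.66 ± 0.08 at 0 h (limma adjusted p = 0.000801) and by -0.37 ± 0.08 at 3 h (limma adjusted p = 0.00909), the latter lost without spermine 3 h replicate 1 (-0.33, limma adjusted p = 0.0669).

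Both interferon gamma receptor chains were near equal per length in PBS 0 h, with an Ifngr2 to Ifngr1 ratio of 0.962 and 0.994. The ratio was 1.83 and 1.65 in PBS 3 h, 1.22 and 1.46 in spermine 0 h and 1.78 and 1.79 in spermine 3 h. Ifngr1 was therefore the scarcer chain in the 6 libraries that had received IFN-β, spermine or both. At 3 h the libraries of PBS and spermine overlap in this ratio, whereas at 0 h they do not.

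Il10ra, the chain that binds interleukin 10, rose with IFN-β in both media. It stood at 46.5 and 45.0 FPKM in PBS 0 h, 48.9 and 48.8 in spermine 0 h, 128 and 133 in PBS 3 h and 118 and 121 in spermine 3 h. The 4 libraries at 3 h lie far above the 4 at 0 h. IFN-β changed it by 1.49 ± 0.06 log2 in PBS (limma adjusted p = 1.48e-06) and by 1.27 ± 0.06 with spermine (limma adjusted p = 4.84e-06), and both calls held in all 16 alternatives. Spermine gave a log2 change of 0.09 at 0 h (limma adjusted p = 0.238, 95% interval -0.04 to 0.23) and of -0.12 at 3 h (limma adjusted p = 0.135, 95% interval -0.26 to 0.02). On rescaled values both were called lower, at 0 h by -0.25 with TPM rescaling (limma adjusted p = 0.0167) and -0.19 with quantile normalization (limma adjusted p = 0.0486), and at 3 h by -0.33 and -0.30.

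Il10rb, the shared partner chain, moved the other way. Its levels were 40.0 and 36.2 FPKM in PBS 0 h, 31.3 and 27.2 in spermine 0 h, 26.2 and 22.9 in PBS 3 h and 24.5 and 23.2 in spermine 3 h. The 3 h groups overlap. IFN-β in PBS lowered it by -0.62 ± 0.10 log2 (limma adjusted p = 0.00210), a call that held in all 16 alternatives. With spermine the log2 change was -0.28 ± 0.10 (limma adjusted p = 0.0633), which passed with TPM rescaling (-0.62), with quantile normalization (-0.53), with limma voom on rebuilt reads (-0.29), without spermine 0 h replicate 2 (-0.38), and with the replicate number as a block (limma adjusted p = 0.0127). Spermine at 0 h gave -0.37 ± 0.10 (limma adjusted p = 0.0247), lost without PBS 0 h replicate 1 (-0.30), without PBS 0 h replicate 2 (-0.44), without spermine 0 h replicate 2 (-0.28), with no filter on low values (limma adjusted p = 0.0549) and with only the 2 groups compared (limma adjusted p = 0.0529). At 3 h the change with spermine was -0.04 (limma adjusted p = 0.794, 95% interval -0.28 to 0.20), and its sign turned without PBS 3 h replicate 1 (0.06).

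The Il10rb to Il10ra ratio fell from 0.860 and 0.805 in PBS 0 h to 0.205 and 0.173 in PBS 3 h, and from 0.640 and 0.557 in spermine 0 h to 0.207 and 0.192 in spermine 3 h. Both 3 h groups overlap in it. Across receptors, Il10ra was 0.884 ± 0.0338 times Ifngr1 per length in PBS 0 h and 9.77 ± 0.247 times Ifngr1 in spermine 3 h (SD, n = 2). Ifngr1 was the highest of the 6 genes in both PBS 0 h libraries, and Il10ra in the other 6 libraries.

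**Figure D2:**
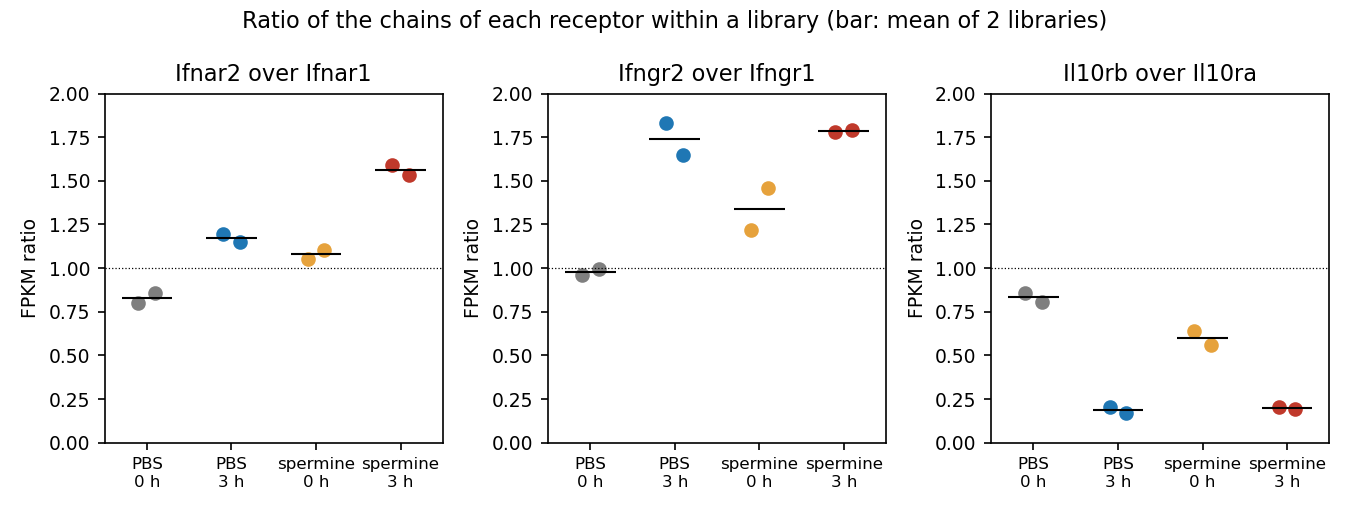
FPKM ratio of the chains of a receptor in each library, on a linear axis from 0, for Ifnar2 over Ifnar1, Ifngr2 over Ifngr1 and Il10rb over Il10ra; points are libraries of the 4 groups, lines their means and the dotted line a ratio of 1. The first ratio climbs from 0.831 in PBS 0 h to 1.56 in spermine 3 h as group means, and the last falls from 0.832 to 0.200.

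The comparisons share libraries, since PBS 0 h is the baseline of both the IFN-β response in PBS and the spermine comparison at 0 h. Side by side, the log2 changes of Ifngr1 in these were -1.59 and -1.09, of Ifngr2 -0.80 and -0.66, of Il10rb -0.62 and -0.37 and of Ifnar1 -0.30 and -0.52. Those of Il10ra were 1.49 and 0.09 and those of Ifnar2 0.18 and -0.15.

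In the spermine groups, IFN-β raised 2 of the 6 genes (Il10ra, Ifnar2) and lowered 2 (Ifngr1, Ifngr2), beside 41.7% of all tested genes called, 19.7% higher and 22.1% lower. The share of higher genes among all called was 47.1% on the deposited scale and 21.5% with TPM rescaling, whose median shift was -0.33 and under which Il10rb was called lower too. Spermine at 0 h lowered 4 of the 6 (Ifngr1, Ifngr2, Ifnar1, Il10rb) while Ifnar2 and Il10ra did not pass, beside 41.2% of all tested genes called, 22% higher and 19.2% lower. There the share of higher genes was 53.3%, against 20.0% with TPM rescaling and a median shift of -0.34, and all 6 receptor genes were called lower on rescaled values, TPM or quantile. The median log2 change at 0 h was -0.44 over the 6 genes and 0.01 over all tested. Spermine at 3 h raised 1 (Ifnar2) and lowered 2 (Ifngr1, Ifngr2), beside 40.5% called, 19.9% higher and 20.6% lower, with 49.2% of called genes higher on the deposited scale and 26.7% with TPM rescaling (median shift -0.20). Without either spermine 3 h library only 1 of the 6 was called in that comparison.

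**Figure D3:**
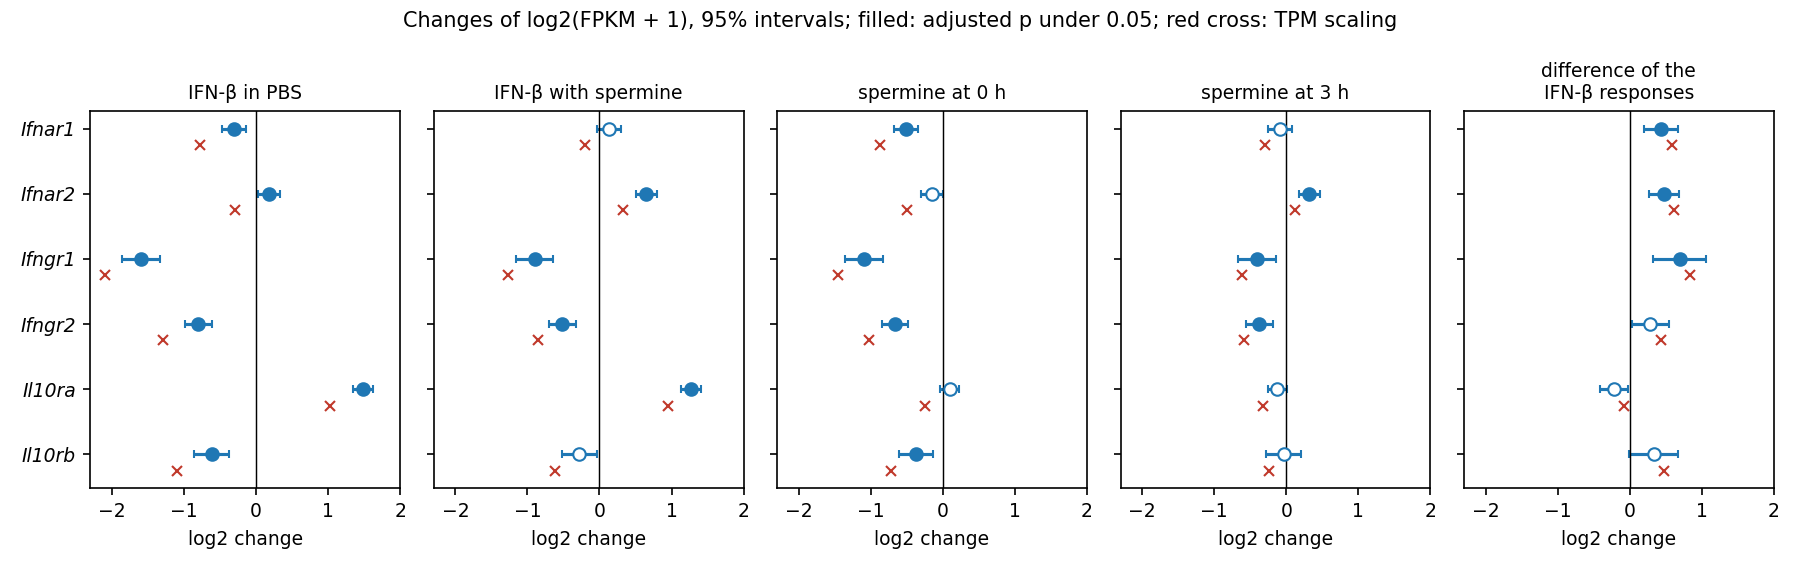
Log2 change of each receptor gene in the 5 comparisons, on the log2(FPKM + 1) scale; bars are 95% intervals from limma and filled points have an adjusted p under 0.05, and red crosses give the change with TPM rescaling. Ifngr1 lies lowest in the IFN-β comparisons (-1.59 and -0.90) and Il10ra highest (1.49 and 1.27). Of 6 differences between the IFN-β responses 3 lie above 0 as called, beside 5.82% of all tested genes called higher.

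The response to IFN-β differed between spermine and PBS for 3 of the 6 genes, all with a higher log2 change in spermine, while 13.6% of all tested genes were called in this difference, 5.82% higher and 7.75% lower. The difference, spermine minus PBS, was 0.69 ± 0.16 for Ifngr1 (limma adjusted p = 0.0326), 0.47 ± 0.09 for Ifnar2 (limma adjusted p = 0.0177) and 0.44 ± 0.10 for Ifnar1 (limma adjusted p = 0.0337). For Ifngr1 it is a smaller fall from a lower start, for Ifnar2 a larger rise, and for Ifnar1 a fall in PBS beside no called change in spermine. Ifngr2 (0.29, limma adjusted p = 0.136, 95% interval 0.03 to 0.55), Il10rb (0.33, limma adjusted p = 0.176, 95% interval -0.01 to 0.67) and Il10ra (-0.22, limma adjusted p = 0.133, 95% interval -0.41 to -0.02) did not pass. Leaving out any library ended the Ifnar1 call, with differences of 0.38 to 0.49 and limma adjusted p between 0.0635 and 0.1225. The Ifnar2 call was kept without either library of PBS 3 h or spermine 0 h replicate 2 and lost without each of the other 5 libraries (0.42 to 0.52 over the 8 fits). The Ifngr1 call was kept without either library of spermine 0 h and lost without each of the other 6 (0.53 to 0.85). Of all genes called, 42.9% were higher, against 67.1% with TPM rescaling, which moves the median difference by 0.14.

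Of the ligands of these receptors and their relatives, 26 are in the table, 17 had no read in any library and 1, Il10, passed the filter. Il10 stood at 1.10 and 1.29 FPKM in PBS 0 h, 16.0 and 14.0 in PBS 3 h, 1.24 and 2.01 in spermine 0 h and 5.78 and 5.56 in spermine 3 h. IFN-β raised it by 2.87 ± 0.15 log2 in PBS (limma adjusted p = 6.02e-06) and by 1.36 ± 0.15 with spermine (limma adjusted p = 0.000416), a difference of -1.51 ± 0.21 (limma adjusted p = 0.00688). The ligand was thus lower in spermine 3 h than in PBS 3 h (-1.26, limma adjusted p = 0.000788), where the Il10ra libraries differed by -0.12 and did not pass. Ifnb1, which encodes IFN-β itself, had 9 and 6 reads in PBS 3 h and between 0 and 2 in every other library.

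All 4 Janus kinases bound to cytokine receptors passed the filter. Among all tested genes 24.6% were called higher with IFN-β in PBS and 19.7% with spermine. IFN-β in PBS raised all 4 on the deposited scale, Jak2 by 2.65 log2 (limma adjusted p = 4.00e-06), Jak3 by 1.40, Tyk2 by 0.70 and Jak1 by 0.30 (limma adjusted p = 0.0201), and Jak1 turned direction with TPM rescaling (-0.17) and quantile normalization (-0.12), where 2 and 3 of the 4 were called higher. With spermine, 2 rose, Jak2 (2.31) and Jak3 (1.21), while Tyk2 (0.35, limma adjusted p = 0.0748) and Jak1 (0.09, limma adjusted p = 0.390; -0.24 with TPM rescaling and -0.21 with quantile normalization) did not pass. Tyk2, the kinase of Ifnar1 and Il10rb, was lower with spermine at 0 h (-0.57, limma adjusted p = 0.0139) and at 3 h (-0.91, limma adjusted p = 0.00209). Jak1, the kinase of Ifnar2, Ifngr1 and Il10ra, was higher with spermine at 0 h (0.27, limma adjusted p = 0.0354; -0.07 with TPM rescaling), and at 3 h its log2 change was 0.07 (limma adjusted p = 0.554; -0.14 with TPM rescaling and -0.07 with quantile normalization). At 0 h Jak2 (0.08, limma adjusted p = 0.665; -0.26 with TPM rescaling and -0.06 with quantile normalization) and Jak3 (-0.23, limma adjusted p = 0.412) did not pass, nor at 3 h Jak2 (-0.26, limma adjusted p = 0.139; -0.47 and called lower with TPM rescaling, limma adjusted p = 0.0257) and Jak3 (-0.42, limma adjusted p = 0.136). In the difference of the responses Tyk2 (-0.34, limma adjusted p = 0.277), Jak2 (-0.33, limma adjusted p = 0.258), Jak1 (-0.20, limma adjusted p = 0.288) and Jak3 (-0.20, limma adjusted p = 0.684) did not pass.

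Of the genes that carry the signal inward from the type I interferon receptor, Stat2, a part of the complex that binds interferon-stimulated promoters, rose with IFN-β by 4.06 log2 in PBS (limma adjusted p = 4.50e-07) and by 4.77 with spermine (limma adjusted p = 2.66e-07). Its log2 change with spermine was -1.10 at 0 h (limma adjusted p = 0.000621) and -0.39 at 3 h (limma adjusted p = 0.0407). The difference of the responses was higher for Stat2 (0.71, limma adjusted p = 0.0398) and for Irf9, which belongs to the same complex (0.54, limma adjusted p = 0.0435), and quantile normalization ended both calls (0.66 and 0.48).

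Of 18 genes that remove, modify or brake these receptors, 11 rose and 2 fell with IFN-β in PBS, and 10 rose and 3 fell with spermine. With TPM rescaling these counts were 8 and 5, then 7 and 5. Among all tested genes 24.6% rose and 25% fell with IFN-β in PBS, and 19.7% and 22.1% with spermine. Usp18, which binds Ifnar2 and blocks JAK1 there, rose by 6.92 log2 in PBS and by 6.83 with spermine (limma adjusted p = 1.20e-08 and 1.56e-08). Socs1, an inhibitor of Janus kinases, rose by 7.43 in PBS and by 5.64 with spermine, and was lower with spermine at 3 h by -1.42 (limma adjusted p = 0.00393). In spermine against PBS at 0 h, 7 of the 18 rose and 4 fell, with Ptpn6, the phosphatase SHP-1, at -1.76 (limma adjusted p = 8.50e-06) and Socs3, which acts on interleukin 6 family receptors, at 1.55 (limma adjusted p = 0.000167). At 3 h, 4 rose and 4 fell, Socs3 by 2.09 (limma adjusted p = 5.43e-05). TPM rescaling gave 3 higher and 7 lower at 0 h, and 3 higher and 10 lower at 3 h. On the deposited scale 22% of all tested genes were higher and 19.2% lower at 0 h, and 19.9% and 20.6% at 3 h. In the difference of the responses 3 were higher and 2 lower, beside 5.82% and 7.75% of all tested genes. Of the list, Cish (0.93, limma adjusted p = 0.0121) and Socs1 (-1.79, limma adjusted p = 0.0197) were among those called. With TPM rescaling Cish was at 0.86 and not called. Cish and Socs1 passed the filter only through their 3 h libraries, where they are high. The rises of Socs1 with IFN-β and the differences of both genes are therefore a description and support nothing. The counts of the 18 include these genes and are a description too.

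Of 12 genes known to respond to interleukin 10 in macrophages, 11 passed the filter. The list shares Socs3 with the brakes and Il4ra with the other cytokine receptors described below. With IFN-β, 9 rose and 1 fell in PBS, and 9 rose with spermine. In spermine against PBS, 7 rose and 2 fell at 0 h, and 8 rose and 2 fell at 3 h. With TPM rescaling the counts higher and lower were 8 and 1, 8 and 1, 6 and 3, and 7 and 2, in the same order. On the deposited scale the shares of all tested genes were 24.6% and 25%, 19.7% and 22.1%, 22% and 19.2%, and 19.9% and 20.6%. In the difference of the responses they were 5.82% and 7.75%. The genes that led differ by contrast: Socs3 (3.45 log2, limma adjusted p = 1.11e-06) and the interleukin 1 receptor antagonist Il1rn (2.45, limma adjusted p = 1.95e-06) with IFN-β in PBS, and Hmox1 (4.55, limma adjusted p = 9.17e-07) and Ddit4 (2.45, limma adjusted p = 5.90e-05) with spermine at 0 h. Hmox1, which degrades heme, and Ddit4, an inhibitor of mTORC1, are also known targets of stress pathways. In the difference of the responses 2 were higher, Ddit4 (1.24, limma adjusted p = 0.0151) and Zfp36, an mRNA-destabilising protein (0.53, limma adjusted p = 0.0404). No library was treated with interleukin 10, and signalling through its receptor was not measured.

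**Figure D4:**
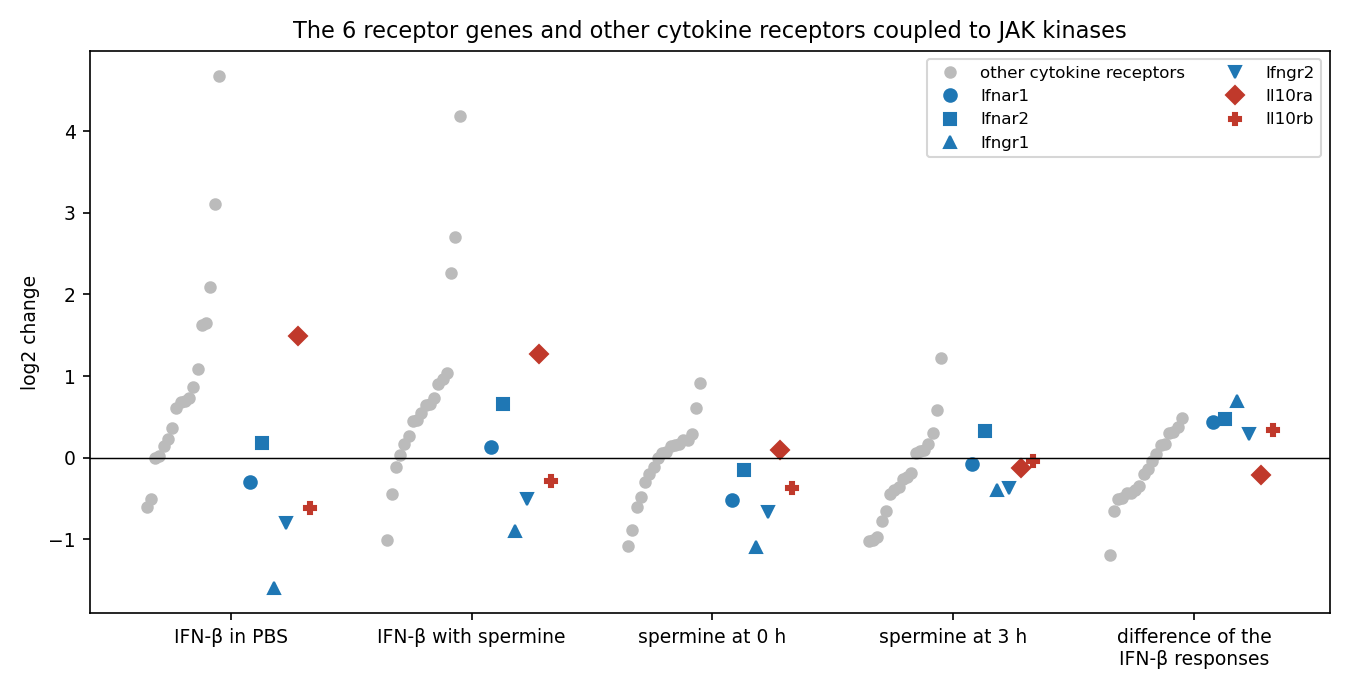
Log2 change on the log2(FPKM + 1) scale of the 6 receptor genes and of 18 other tested receptors that signal through Janus kinases, in the 5 comparisons; each point is a gene. Ifngr1, Ifngr2 and Il10rb lie below all 18 others with IFN-β in PBS, Il10rb by less than its standard error. With IFN-β and spermine none of them lies below all 18. Ifngr1 lies above all 18 in the difference of the responses.

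Other cytokine receptors that use Janus kinases number 33, of which 18 passed the filter and 3 had 0 reads. For comparison, 24.6% of all tested genes were higher and 25% lower with IFN-β in PBS, and 19.7% and 22.1% with spermine. These shares were 22% and 19.2% for spermine at 0 h, 19.9% and 20.6% at 3 h, and 5.82% and 7.75% in the difference. With IFN-β in PBS 11 of the 18 rose and 2 fell, and the lowest of them was Il6ra at -0.60 log2. Ifngr1 (-1.59) and Ifngr2 (-0.80) lie below the whole set. Il10rb (-0.62 ± 0.10) does too, though it is lower than Il6ra by less than its standard error. Il10ra (1.49) lies above 13 of the 18. With TPM rescaling 9 of the 18 were called higher and 4 lower. The largest rises in the set were those of Il15ra, which presents interleukin 15 (4.67, limma adjusted p = 4.93e-08), and Il13ra1 (3.10, limma adjusted p = 1.48e-06). With spermine present 11 rose and 1 fell with IFN-β, and 7 and 4 with TPM rescaling. There Il6st (-1.01) lies below Ifngr1 (-0.90) and Ifngr2 (-0.51), and 2 of the 18 lie below Il10rb (-0.28). With spermine at 0 h 3 rose and 6 fell, from Csf3r, the receptor for granulocyte colony-stimulating factor (-1.08, limma adjusted p = 9.71e-05), to Il4ra (0.91, limma adjusted p = 6.64e-05), and Ifngr1 (-1.09) lies at the level of Csf3r. At 3 h 1 rose, Il4ra (1.22), and 9 fell, with the lowest value in Il12rb1 (-1.02), while Ifnar2 (0.32) lies above 16 of the 18. In the difference of the responses 1 was higher and 3 lower (3 and 1 with TPM rescaling), with Il12rb1 at -1.19 and Il6st at -0.51 (limma adjusted p = 0.0239; not called on rescaled values, TPM or quantile), and Ifngr1 (0.69) lies above all 18. Il12rb1 passed the filter only through PBS 3 h, at 1.96 and 2.58 FPKM against at most 0.805 elsewhere, so its lower values with spermine at 3 h and in the difference support nothing. Il15ra likewise passed only through its 3 h libraries, as did Socs1 and Cish among the brakes, so their rises with IFN-β support nothing either. The counts of higher genes in both lists include such genes and are a description for that reason. These placings are a description, since no test compares the sets. Of the 6 remaining receptors of the same structural class as the interferon receptors, F3 alone, which encodes tissue factor, passed the filter, and only through its 3 h libraries.

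The genes around the chromosome 16 cluster moved in various directions. Towards lower coordinates, Olig1 and Olig2 had no read and 4932438H23Rik at most 0.324 FPKM, and none was tested. Towards higher coordinates, Tmem50b changed by 0.28 log2 with IFN-β in PBS (limma adjusted p = 0.0241) and by 0.32 with spermine (limma adjusted p = 0.0173), and TPM rescaling turned both signs (-0.19 and -0.01). Dnajc28 passed the filter through PBS 0 h, at 2.47 and 2.60 FPKM, with 1.03 in 1 library of spermine 0 h and under 1 in the other 5 libraries, so its lower values elsewhere are a description. Its log2 change was -1.49 with IFN-β in PBS, -0.73 with spermine and -0.85 with spermine at 0 h, and 0.76 in the difference of the responses. Gart, an enzyme of purine synthesis, changed by -0.37 with IFN-β in PBS (limma adjusted p = 0.0358) and by -0.47 with spermine at 0 h (limma adjusted p = 0.0169). Within the cluster itself, Ifnar2 (0.18) and Il10rb (-0.62) lie next to each other and moved in opposite directions with IFN-β in PBS on the deposited scale, and Ifnar2 was lower on both rescaled scales.

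**Figure D5:**
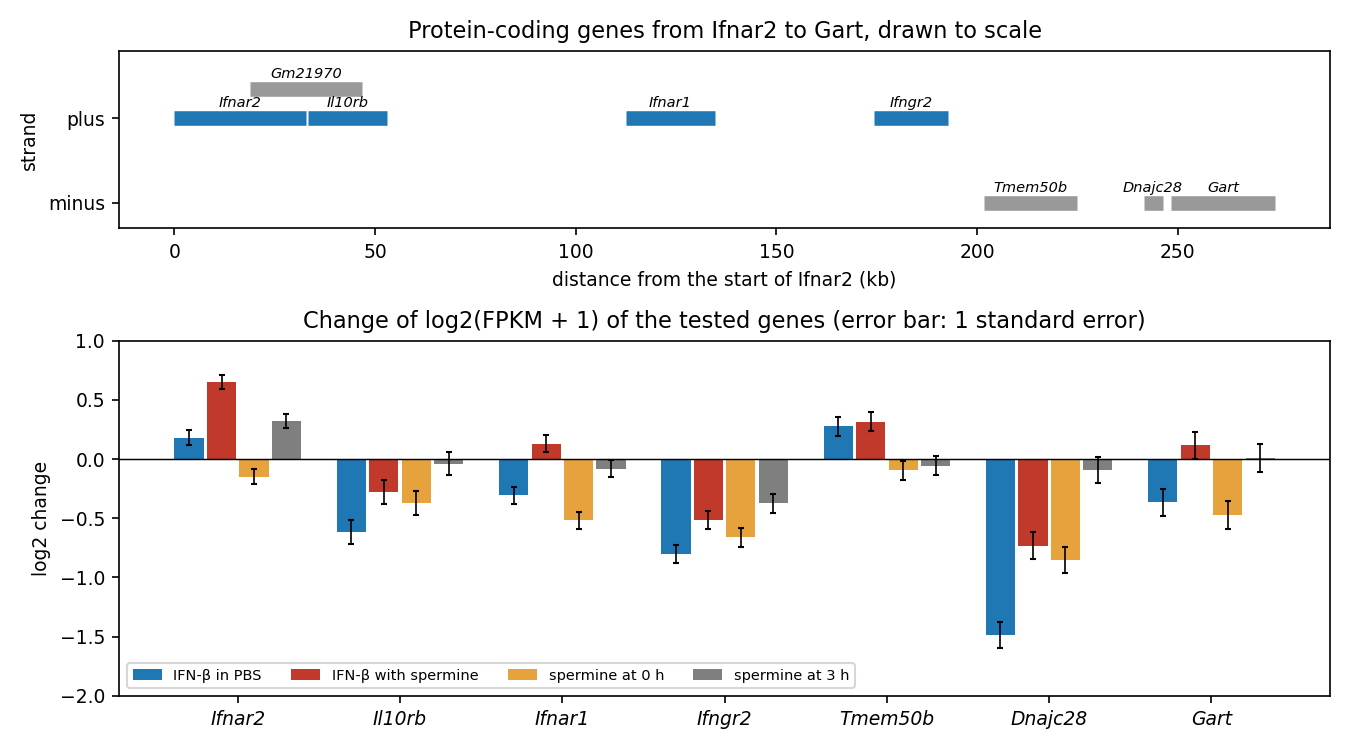
Map, to scale, of the protein-coding genes from Ifnar2 to Gart by distance in kb from the start of Ifnar2 and by strand, above the log2 change on the log2(FPKM + 1) scale of the tested genes among them, in genome order, in the 4 pairwise comparisons; error bars are 1 standard error from limma. Among the 4 receptor genes Ifngr2 shows the lowest value, -0.80 with IFN-β in PBS, and Ifnar2 the highest, 0.65 with IFN-β and spermine; Dnajc28 passed the filter through PBS 0 h.

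Over the 8 libraries, the level of Ifngr1 ran closest to that of Ifngr2 among the 6 genes (Pearson r = 0.984), then to that of Il10rb (0.964), although Ifngr1 lies on another chromosome. The chains of the type I interferon receptor did not run together (r = -0.04), and Ifnar2 lay nearest to Il10ra (0.808). These values use log2(FPKM + 1), the libraries share 4 groups, and r follows the group means, so it describes shared order only. Among 9809 other protein-coding genes, those most like each receptor gene were Rassf5 (0.990), Apobec1 (0.979) and Arhgap30 (0.977) for Ifnar1, and B4galt3 (0.994), Cyren (0.983) and Mcl1 (0.968) for Ifnar2. For Ifngr1 they were Galc (0.995), Fbxo21 (0.995) and Slc38a1 (0.993), and for Ifngr2 Galnt4 (0.994), Slc38a1 (0.994) and Pfkfb2 (0.993). Il10ra was matched by the interferon-stimulated genes Rsad2 and Gbp2 and by Csrp1 (0.999 each), and Il10rb by Zfp971 (0.994), P2ry1 (0.993) and Arhgef6 (0.983). Slc38a1, an amino acid transporter, is named for both interferon gamma receptor chains, at 5.30 FPKM in PBS 0 h, 3.06 in PBS 3 h, 3.49 in spermine 0 h and 2.44 in spermine 3 h.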

How the data were processed

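The table deposited by the authors holds FPKM for 54532 genes in 8 libraries, with gene length and biotype. Tools named in the submitters' processing notes, without order or role, are CASAVA 1.8, fastp, HISAT2 2.0.5, featureCounts 1.5.0-p3 and DESeq2 1.20.0, with builds GRCm38 and mm10. The labels describe poly-T selection and random hexamer priming and do not state a strand. Dividing FPKM times length by what a read is worth in each library gave whole numbers for 100% of values (tolerance 0.001 of a read), and reads were rebuilt this way for depth and for a limma voom alternative. The libraries were scaled by a factor other than their totals of rebuilt reads, which whole numbers alone do not show. PBS 0 h replicate 1 and PBS 3 h replicate 2 had near equal totals (17744844 and 17738013). In them 5430 and 2920 Ifnar1 reads stood at 39.9 and 30.4 FPKM, which is not in proportion. TPM rescaling is an alternative beside the deposited scale.

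Groups and replicate numbers come from the titles. Genes at 1 FPKM or more in at least 2 libraries (11421, of which 9810 protein coding) were fitted with limma 3.58.1 in R 4.3.3, on log2(FPKM + 1), as 4 group means with an intensity trend (4 residual and 2.83 prior degrees of freedom, two-sided). A gene is called at an adjusted p under 0.05, adjusted within each of the 5 comparisons. The work used Python 3.11.15, pandas 2.3.3, numpy 2.4.6, scipy 1.17.1, data.table (version 1.17.8) and matplotlib 3.10.9. The fit was tested on simulated data.

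The genes and lists were chosen with earlier results of these data known. Named are the 6 receptor genes, the kinases, and of the ligands those with reads that a statement needs. Of the other lists the text names the 2 largest called changes per comparison, and further the 3 genes of highest correlation with each receptor gene and the neighbours of the chromosome 16 cluster (3 on each side). The list of signal transducers is not reported here as counts, and Stat2 and Irf9 are given from it. Il6ra was named after its value was seen, as the lowest of the other receptors. Alternatives were a pseudocount of 0.1, no filter on low values, TPM rescaling, quantile normalization, the replicate number as a block, no intensity trend, only the 2 groups compared, limma voom, and leaving out each library.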

Additional observations from a re-analysis of the deposited data

Results flagged for a closer look

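The IFN-β response differed between spermine and PBS, by the test of the difference itself, for 3 of the 6 receptor genes. Of all tested genes 13.6% were called in this test, 5.82% higher and 7.75% lower. The difference in log2 change, spermine minus PBS, was 0.4358 for Ifnar1, 0.4708 for Ifnar2 and 0.6923 for Ifngr1 (limma adjusted p = 0.0337, 0.0177 and 0.0326). It was above 0 for these 3 genes in each alternative run, with ranges of 0.3808 to 0.6339, 0.4215 to 0.6172 and 0.5318 to 1.038. Among 15 alternatives the calls held in 5, 10 and 8.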

How the results depend on the processing

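Across the alternatives, 474 values of the receptor genes' changes were recomputed, of which 409 kept direction and side of the threshold, 47 lost a call, 11 gained a call and 7 turned direction. TPM rescaling turned Ifnar2 (-0.2861), Jak1 (-0.1659) and Tmem50b (-0.1874) with IFN-β in PBS. It turned Ifnar1 (-0.1974), Gart (-0.1772), Jak1 (-0.2364) and Tmem50b (-0.007133) with IFN-β and spermine. It also turned Il10ra (-0.2498), Jak1 (-0.06839) and Jak2 (-0.2593) for spermine at 0 h, and Gart (-0.180) and Jak1 (-0.1389) for spermine at 3 h. Quantile normalization turned Ifnar2 (-0.2596), Jak1 (-0.1213) and Tmem50b (-0.1205) with IFN-β in PBS, Ifnar1 (-0.133) and Jak1 (-0.2143) with IFN-β and spermine, Il10ra (-0.1929) and Jak2 (-0.06158) for spermine at 0 h, and Jak1 (-0.06545) for spermine at 3 h. Leaving out 1 library at a time gave ranges that cross 0 for Gart with IFN-β and spermine (-0.02043 to 0.2511), for Jak2 (-0.07473 to 0.2251) and Jak3 (-0.4595 to 0.008296) with spermine at 0 h, for Il10rb (-0.1308 to 0.05606), Gart (-0.05544 to 0.07591) and Tmem50b (-0.1178 to 0.008431) with spermine at 3 h, and for Jak3 (-0.432 to 0.03578) and Tmem50b (-0.02239 to 0.1039) in the difference of the responses. Of the turns with TPM rescaling and quantile normalization, limma called those of Ifnar2 with IFN-β in PBS and of Il10ra with spermine at 0 h. None of the turns in fits that leave out 1 library was called. Over the same fits, genes called ranged from 2999 (without PBS 0 h replicate 2) to 4897 for spermine at 0 h, from 2912 (without spermine 3 h replicate 1) to 4645 for spermine at 3 h, and from 520 (without PBS 0 h replicate 2) to 1671 for the difference. Receptor genes called ranged from 1 to 3 for spermine at 3 h and from 0 to 2 for the difference, where limma found 3 to 5 of the 6 at an unadjusted p under 0.05 in the fits with 0 called, and 1 was called with no filter on low values. Such fits have fewer libraries and the cause of each lost call was not tested. With the replicate number as a block, 6, 5, 4, 3 and 3 receptor genes and 5956, 5033, 4996, 4978 and 1813 of all genes were called in the 5 comparisons. Without the block, 5661, 4768, 4706, 4626 and 1550 of all genes were called, fewer in each comparison. Deviations of same-numbered libraries correlated at 0.229, 0.246 and 0.371 among PBS 0 h, PBS 3 h and spermine 0 h. With spermine 3 h these groups correlated at -0.0615, -0.089 and -0.126. Whether the numbers mark paired samples is not labelled, and these values do not settle it. Between 474 and 7495 rebuilt reads per library stand behind the value of each receptor gene.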
